A study of Arabidopsis thaliana with 12 samples.

Results

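The genes described here are 10 Arabidopsis thaliana loci of light perception and of the step directly below it: the 5 phytochrome genes PHYA (AT1G09570), PHYB (AT2G18790), PHYC (AT5G35840), PHYD (AT4G16250) and PHYE (AT4G18130), the cryptochrome genes CRY1 (AT4G08920) and CRY2 (AT1G04400), the bZIP transcription factor genes HY5 (AT5G11260) and HYH (AT3G17609), and COP1 (AT2G32950). They were chosen by locus identifier out of 25089 loci in the files, with earlier results of these data known. The 10 loci have 15 transcripts among 32950, and all 15 passed the filter on low values that kept 25710 transcripts of 18502 genes.

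Phytochromes sense red and far-red light and cryptochromes sense blue light, and both families act in the light by restraining COP1, an E3 ubiquitin ligase that marks growth regulators of the light response for degradation. HY5 and its close relative HYH are among the proteins that COP1 removes in darkness, and in light they accumulate and activate genes of pigment synthesis, photoprotection and restrained elongation. Active phytochromes also bind the PIF transcription factors, which promote elongation of stems and petioles, and cause their degradation. AHL proteins carry an AT-hook that binds AT-rich DNA.

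Transcripts were measured by RNA-seq in 12 libraries, 3 per genotype, all in the Col-0 ecotype. The genotypes were sob3-6, labelled as a dominant-negative mutant of AHL genes, SOB3-D, labelled as an AHL overexpressor, pif4 pif5 pif7, which carries the loss-of-function alleles pif4-101, pif5 (pil6-1) and pif7-1, and the wild type Col-0. All plants were 14 days old, grown at 22 °C in 16 h of light and 8 h of darkness in white fluorescent light (35 to 55 µmol per m2 per s) on sucrose-free medium, and apical parts, cut in the hypocotyl, were collected at ZT4, during the light period. The study set out to find genes that AHL and PIF factors regulate in juvenile rosettes. Nothing in the labels says that the 3 libraries of a genotype came from separate cultures. The p-values then reflect only how far libraries differed, and that spread may be technical.

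SOB3, the AHL gene that gives the first pair of lines their names, was at 217.5 to 232.3 ppm in sob3-6, 180.1 to 205.8 ppm in SOB3-D, 0.0715 to 0.362 ppm in pif4 pif5 pif7 and 0 to 0.312 ppm in Col-0. Its transcript was thus high in both AHL lines, and the function that separates them by label was not measured. In pif4 pif5 pif7 the altered genes PIF4, PIF5 and PIF7 were at 72.8 to 81.8, 16.6 to 21.0 and 5.97 to 7.15 ppm, against 132.1 to 142.7, 190.6 to 195.6 and 44.3 to 46.8 ppm in Col-0. They were at 164.9 to 184.4, 210.6 to 221.1 and 50.2 to 54.0 ppm in sob3-6. In SOB3-D they were at 139.8 to 159.7, 187.3 to 207.6 and 52.4 to 57.0 ppm. By the test given below, PIF4 was called higher in sob3-6 than in Col-0, and PIF7 higher in SOB3-D than in Col-0. Values are in ppm, the submitters' mapped tags per transcript scaled to library size, and depth ran from 7637822 reads in a SOB3-D library to 16075498 in a Col-0 library. SOB3-D libraries were the shallowest (7637822 to 8877404 reads), so 1 ppm there rests on fewer reads. Of 9 root markers, 6 were under 1 ppm in every library of each genotype, and the 9 summed to 3.87 to 8.11 ppm over the 12 libraries, while 5 shoot markers summed to 48620 to 59710 ppm. In these whole shoots, fewer cells of a type and less RNA per cell cannot be told apart.

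Sequences upstream of the start of transcription are shown for 5 of the 10 genes, since HYH and PHYA differed most between genotypes while PHYB, PHYD and HY5 carry a match to a motif searched for. Each is the 250 bases before the annotated start of the gene, 5′ to 3′ on the strand of the gene, from the TAIR10.1 genome of RefSeq. Capitals mark CACGTG, the G-box, which bZIP factors such as HY5 and bHLH factors such as PIFs are known to bind and which reads the same on both strands, and CATGTG or its other strand CACATG, a variant bound by PIFs. The stretches are HYH chr3:6023594-6023843 (+ strand), PHYA chr1:3100820-3101069 (- strand), PHYB chr2:8139506-8139755 (+ strand), PHYD chr4:9199841-9200090 (- strand) and HY5 chr5:3595074-3595323 (- strand).
HYH: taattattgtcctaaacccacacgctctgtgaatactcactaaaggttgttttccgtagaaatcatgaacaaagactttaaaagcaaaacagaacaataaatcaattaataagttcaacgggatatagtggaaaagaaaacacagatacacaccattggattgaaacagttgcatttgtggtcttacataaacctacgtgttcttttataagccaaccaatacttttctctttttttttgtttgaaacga
PHYA: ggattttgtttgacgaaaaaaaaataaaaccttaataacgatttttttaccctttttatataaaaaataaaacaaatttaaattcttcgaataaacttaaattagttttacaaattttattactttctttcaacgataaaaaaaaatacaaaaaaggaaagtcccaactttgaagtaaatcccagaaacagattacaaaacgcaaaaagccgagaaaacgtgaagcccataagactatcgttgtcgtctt
PHYB: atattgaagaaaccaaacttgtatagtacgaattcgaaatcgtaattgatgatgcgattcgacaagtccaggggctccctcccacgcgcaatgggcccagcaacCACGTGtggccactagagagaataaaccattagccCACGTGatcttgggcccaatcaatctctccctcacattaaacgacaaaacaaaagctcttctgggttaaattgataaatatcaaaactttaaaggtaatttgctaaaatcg
PHYD: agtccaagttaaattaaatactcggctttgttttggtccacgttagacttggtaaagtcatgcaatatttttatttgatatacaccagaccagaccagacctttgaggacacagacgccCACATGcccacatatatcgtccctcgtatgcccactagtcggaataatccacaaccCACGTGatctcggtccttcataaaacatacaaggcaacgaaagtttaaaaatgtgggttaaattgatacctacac
HY5: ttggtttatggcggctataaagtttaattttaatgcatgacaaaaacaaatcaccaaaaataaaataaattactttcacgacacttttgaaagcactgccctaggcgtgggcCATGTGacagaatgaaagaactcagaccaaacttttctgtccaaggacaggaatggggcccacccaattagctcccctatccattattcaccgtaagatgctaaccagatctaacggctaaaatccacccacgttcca

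The G-box was found upstream of 2 of the 10 genes, PHYB and PHYD, and in 6.49% of 27443 windows of the same length before annotated nuclear protein-coding genes. In PHYB it occurs at 2 places, beginning 146 and 111 bases before the start, and in PHYD at 1 place, beginning 75 bases before it. The variant was found upstream of 2 of the 10, PHYD at 131 bases and HY5 at 138 bases, and in 11.1% of all windows. The PHYA window is 74% A or T and the HYH window 67.6%, where the median of all windows is 68.8%. HYH and PHYA, the genes that differed most between genotypes, hold neither motif in this window. These are matches of letters, and binding was not measured here.

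All 10 genes were transcribed in every library. Per kb of transcript, the scale on which genes can be compared, CRY1 was highest in Col-0 at 75.1 ± 1.9 ppm per kb (SD, n = 3), followed by CRY2 at 45.9 ± 0.58. HYH (25.1 ± 1.6), PHYB (21.3 ± 0.38), COP1 (21.1 ± 0.93) and PHYA (20.4 ± 1.1 ppm per kb) formed the next group, with means of neighbours closer than their SDs except between HYH and PHYB. PHYE (13.8 ± 0.34) stood above PHYC (11.5 ± 0.22 ppm per kb). HY5 (6.71 ± 0.46) and PHYD (3.59 ± 0.18 ppm per kb) were lowest. HY5, the better known of the pair of bZIP genes, was thus below HYH in level per kb in Col-0. The number of reads behind a value ran from 61 for HY5 in a SOB3-D library to 3636 for CRY1 in a Col-0 library.

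**Figure D1:**
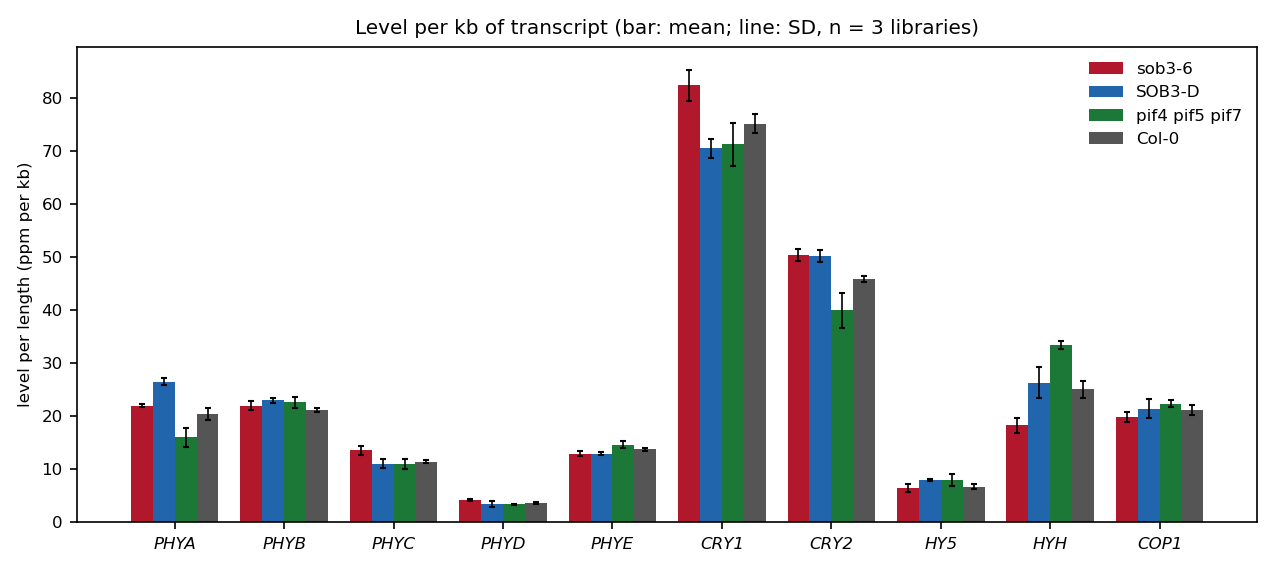
Level of each of the 10 genes per kb of its representative transcript, in ppm per kb, with bars for the mean and lines for the SD over 3 libraries of sob3-6, SOB3-D, pif4 pif5 pif7 and Col-0. CRY1 and CRY2 are highest in every genotype and PHYD is lowest, and the Col-0 bars run from 3.59 for PHYD to 75.1 for CRY1.

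Of the 10 genes, 6 were called in at least 1 of the 4 comparisons made: PHYA, PHYC, PHYD, CRY1, CRY2 and HYH. The share of all genes called in at least 1 of the 4 was not counted. It cannot be below the 35.7% called in sob3-6 against SOB3-D alone, so the 6 are a description only. A gene was called at a limma p under 0.05 after Benjamini-Hochberg adjustment over all tested transcripts, on log2(ppm + 1), where 1 is the pseudocount. PHYB, PHYE, HY5 and COP1 were called in none of the 4. Between the AHL lines, median-of-ratios scaling and edgeR did call PHYB (adjusted p = 0.0268 and 0.0394), HY5 (0.0283 and 0.0488) and COP1 (0.017 and 0.0231) lower in sob3-6, and quantile normalization did so for HY5 (0.0232) and COP1 (0.038). Quantile normalization also called PHYB higher in SOB3-D than in Col-0 (adjusted p = 0.0442). The largest called difference was that of HYH between sob3-6 and SOB3-D, 0.49 on the log2 scale. Genotype means of HYH spanned 1.83-fold from sob3-6 to pif4 pif5 pif7 and those of PHYA 1.66-fold from pif4 pif5 pif7 to SOB3-D. Those of the other 8 genes spanned at most 1.26-fold.

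**Figure D2:**
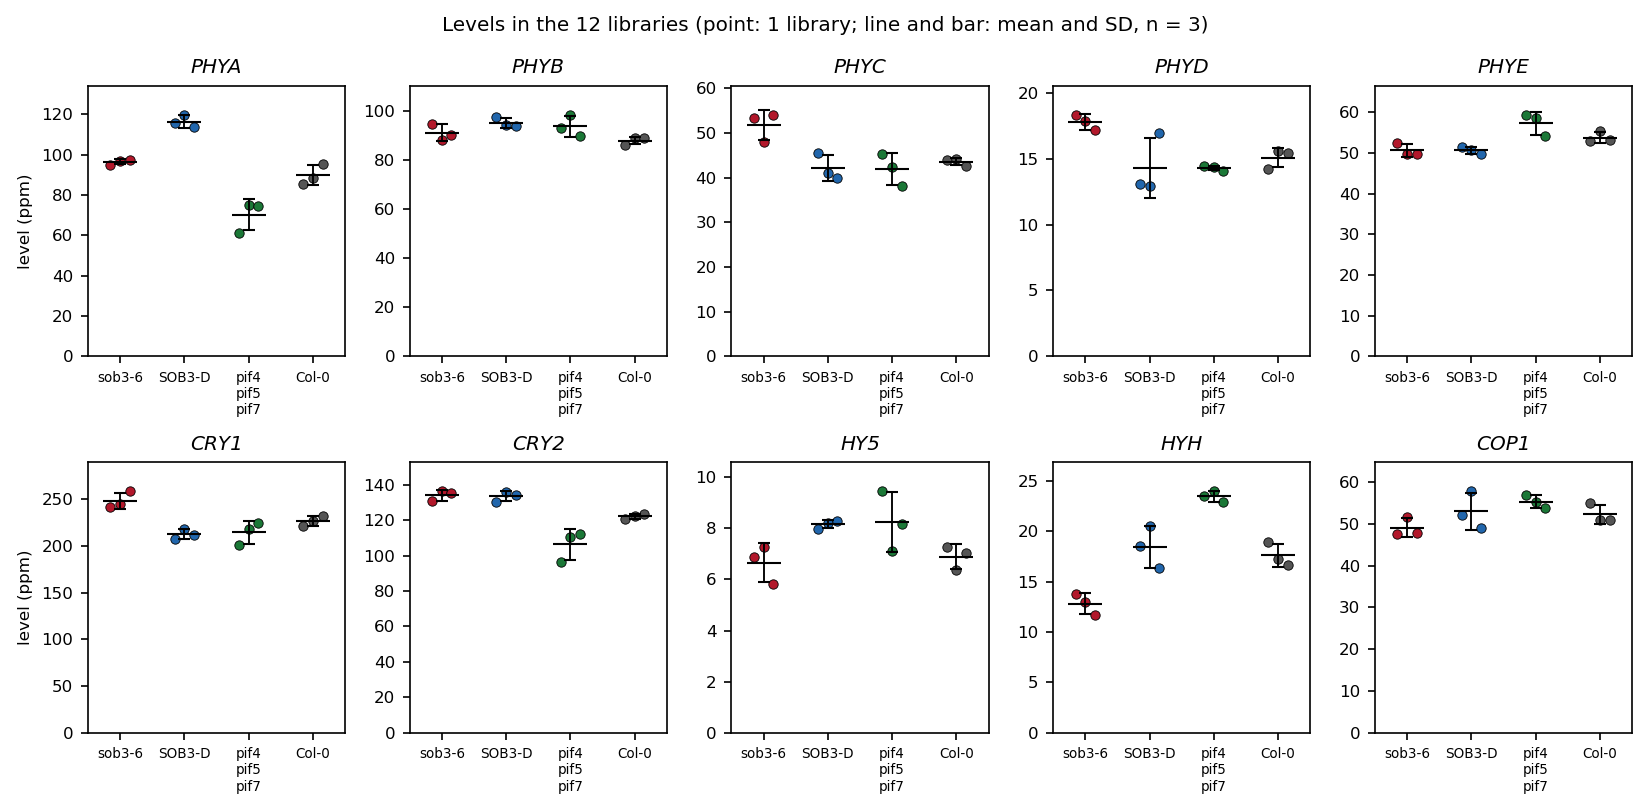
Level in ppm of each gene in each library, with the mean and SD over n = 3, for sob3-6, SOB3-D, pif4 pif5 pif7 and Col-0; each panel has its own axis from 0. PHYA is highest in SOB3-D (113.7 to 119.7 ppm) and lowest in pif4 pif5 pif7 (61.2 to 74.8 ppm), and HYH is lowest in sob3-6 (11.7 to 13.8 ppm) and highest in pif4 pif5 pif7 (23.0 to 24.0 ppm).

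PHYA codes for the phytochrome that is abundant in dark-grown tissue, is degraded in light and mediates responses to far-red light. Its level was 95.1, 97.0 and 97.5 ppm in the sob3-6 libraries, 115.9, 119.7 and 113.7 ppm in SOB3-D, 61.2, 74.8 and 74.5 ppm in pif4 pif5 pif7, and 85.5, 88.3 and 95.2 ppm in Col-0. All 3 SOB3-D libraries lay above every other library, all 3 of pif4 pif5 pif7 lay below every other one, and sob3-6 overlapped Col-0. PHYA rose in SOB3-D against Col-0 (log2 difference 0.37, SE 0.06, limma adjusted p = 2.43e-05) and fell in pif4 pif5 pif7 (-0.35, SE 0.06, limma adjusted p = 0.000392). Its difference in sob3-6 was 0.11 (95% interval -0.02 to 0.23, limma adjusted p = 0.26). Between the AHL lines PHYA was lower in sob3-6 than in SOB3-D (-0.27, SE 0.06, limma adjusted p = 0.000967). Both PHYA transcripts in the files, which share most of their reads, gave the same 3 calls.

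PHYB, the main red light receptor of green plants, stayed within 86.3 to 98.5 ppm over all 12 libraries. It averaged 91.3 ± 3.4 ppm in sob3-6, 95.4 ± 2.0 in SOB3-D, 94.0 ± 4.3 in pif4 pif5 pif7 and 88.1 ± 1.6 ppm in Col-0. Its SOB3-D and pif4 pif5 pif7 libraries lay just above those of Col-0 without overlap, with log2 differences of 0.11 (95% interval 0.01 to 0.22, limma adjusted p = 0.0949) and 0.09 (-0.01 to 0.19, limma adjusted p = 0.316). The ratio of PHYA to PHYB in ppm within a library was 1.001 to 1.098 in sob3-6, 1.19 to 1.27 in SOB3-D, 0.656 to 0.827 in pif4 pif5 pif7 and 0.991 to 1.07 in Col-0. Genotypes therefore differed in this ratio without overlap in SOB3-D and in pif4 pif5 pif7 against Col-0, and the ratio itself was not tested.

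PHYC and PHYD had a like order of genotypes, with sob3-6 on top. PHYC, whose protein is known to depend on other phytochromes for its stability, was at 53.3, 48.0 and 54.0 ppm in sob3-6, 45.6, 41.0 and 40.0 ppm in SOB3-D, 45.2, 42.3 and 38.2 ppm in pif4 pif5 pif7, and 43.9, 44.3 and 42.7 ppm in Col-0. Every sob3-6 library lay above every other library, and the other genotypes overlapped each other. PHYC was higher in sob3-6 than in Col-0 (0.24, SE 0.07, limma adjusted p = 0.0137) and than in SOB3-D (0.29, SE 0.07, limma adjusted p = 0.001). The call against Col-0 was lost after median-of-ratios scaling (adjusted p = 0.0823), after quantile normalization (0.0646), with edgeR (0.0616) and without Col-0 replicate 3 (0.0593), sob3-6 replicate 1 (0.0598) or sob3-6 replicate 3 (0.0797); over the 14 alternatives the limma or edgeR adjusted p ran from 0.00402 to 0.0823.

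PHYD, the closest relative of PHYB and known to act beside it in shade avoidance, was at 18.4, 17.9 and 17.2 ppm in sob3-6, 13.1, 13.0 and 16.9 ppm in SOB3-D, 14.5, 14.4 and 14.1 ppm in pif4 pif5 pif7, and 14.3, 15.6 and 15.5 ppm in Col-0. All 3 sob3-6 libraries were above all others, by a narrow margin over SOB3-D replicate 3. PHYD was called higher in sob3-6 than in SOB3-D (0.30, SE 0.09, limma adjusted p = 0.0106) and not called against Col-0 (0.225, 95% interval 0.04 to 0.41, limma adjusted p = 0.103). The first call was lost with edgeR (adjusted p = 0.0997), median-of-ratios scaling (0.0667), quantile normalization (0.057) and without SOB3-D replicate 1 (0.0554) or 2 (0.0589). PHYD is also the member with the fewest reads per base, 100 to 250 reads in a library.

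PHYE, which acts with PHYB in restraining flowering and internode growth, was at 50.7 ± 1.6 ppm in sob3-6, 50.7 ± 0.90 in SOB3-D, 57.4 ± 2.8 in pif4 pif5 pif7 and 53.8 ± 1.3 ppm in Col-0. Both AHL lines lay below Col-0 without overlap, by 0.08 (95% interval -0.20 to 0.03, limma adjusted p = 0.331) for sob3-6 and 0.09 (-0.20 to 0.03, limma adjusted p = 0.28) for SOB3-D on the log2 scale, and neither was called. PHYE is the only one of the 10 loci whose annotated span overlaps another gene, AT4G18140 on the same strand, by 60 bases, and that locus reached at most 15.4 ppm. Among the representative transcripts of the 10 loci, no stretch of 50 bases was identical between any pair.

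CRY1, the main blue light receptor for restraint of hypocotyl growth, was at 241.6, 245.3 and 258.6 ppm in sob3-6, 207.5, 218.3 and 212.4 ppm in SOB3-D, 201.2, 218.5 and 225.1 ppm in pif4 pif5 pif7, and 221.2, 226.7 and 232.5 ppm in Col-0. Col-0 lay between the AHL lines, without overlap with either. CRY1 was called between the AHL lines, where sob3-6 was higher than SOB3-D (0.22, SE 0.05, limma adjusted p = 0.000464). Against Col-0 the differences were 0.13 in sob3-6 (95% interval 0.03 to 0.23, limma adjusted p = 0.0622) and -0.09 in SOB3-D (-0.19 to 0.01, limma adjusted p = 0.163). A fit of only the 2 genotypes called CRY1 in sob3-6 (adjusted p = 0.0375).

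CRY2, the cryptochrome that is degraded under blue light and promotes flowering in long days, had another pattern. Its levels were 130.6, 136.2 and 135.2 ppm in sob3-6, 130.4, 136.1 and 134.4 ppm in SOB3-D, 96.4, 110.6 and 111.9 ppm in pif4 pif5 pif7, and 120.4, 122.2 and 123.5 ppm in Col-0. The AHL lines overlapped each other and lay above Col-0, and pif4 pif5 pif7 lay below it. CRY2 fell in pif4 pif5 pif7 (-0.20, SE 0.05, limma adjusted p = 0.0152), while in sob3-6 (0.13, 95% interval 0.03 to 0.24) and SOB3-D (0.13, 0.02 to 0.24) it had limma adjusted p-values of 0.0835 and 0.0635. The call in pif4 pif5 pif7 rested in part on its replicate 1, the lowest of the 12 libraries: without it the difference was -0.13 (limma adjusted p = 0.173), and the call was also lost without Col-0 replicate 2 (0.0509) or 3 (0.0717), with median-of-ratios scaling (0.0598) and with edgeR (adjusted p = 0.0568). In SOB3-D, median-of-ratios scaling (adjusted p = 0.0307), quantile normalization (0.0156) and edgeR (0.0376) called it higher, and in sob3-6 a fit of only the 2 genotypes did (0.0403). The second CRY2 transcript, which shares reads with the first, was called in SOB3-D (0.14, limma adjusted p = 0.0416). The ratio of CRY1 to CRY2 in ppm was 1.80 to 1.91 in sob3-6, 1.581 to 1.604 in SOB3-D, 1.98 to 2.09 in pif4 pif5 pif7 and 1.84 to 1.88 in Col-0, so SOB3-D was lowest and pif4 pif5 pif7 highest without overlap.

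HYH, the HY5 homologue, had the widest span of genotype means among the 10. It was at 13.8, 13.0 and 11.7 ppm in sob3-6, 18.6, 20.5 and 16.4 ppm in SOB3-D, 23.5, 24.0 and 23.0 ppm in pif4 pif5 pif7, and 18.9, 17.2 and 16.7 ppm in Col-0. The sob3-6 libraries lay below all others and those of pif4 pif5 pif7 above all others, and SOB3-D overlapped Col-0. HYH fell in sob3-6 against Col-0 (-0.43, SE 0.09, limma adjusted p = 0.00111) and rose in pif4 pif5 pif7 (0.40, SE 0.09, limma adjusted p = 0.00475). It was also lower in sob3-6 than in SOB3-D (-0.49, SE 0.09, limma adjusted p = 5.13e-05). In SOB3-D against Col-0 the difference was 0.06 (95% interval -0.12 to 0.24, limma adjusted p = 0.654). All 4 HYH transcripts in the files, which share reads, gave these 3 calls, with differences of -0.43 to -0.39 in sob3-6 and 0.40 to 0.42 in pif4 pif5 pif7.

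HY5 itself was at 6.89, 7.27 and 5.81 ppm in sob3-6, 7.99, 8.22 and 8.30 ppm in SOB3-D, 9.44, 7.13 and 8.18 ppm in pif4 pif5 pif7, and 7.28, 6.36 and 7.04 ppm in Col-0, on 61 to 132 reads a library. The SOB3-D libraries were above those of Col-0 and sob3-6, and pif4 pif5 pif7 overlapped Col-0. No difference was called, and the intervals are wide: -0.05 in sob3-6 (95% interval -0.28 to 0.19, limma adjusted p = 0.832), 0.22 in SOB3-D (-0.02 to 0.46, limma adjusted p = 0.178), 0.22 in pif4 pif5 pif7 (-0.01 to 0.46, limma adjusted p = 0.288) and -0.26 in sob3-6 against SOB3-D (-0.50 to -0.03, limma adjusted p = 0.0755). A change of HY5 as large as that of HYH lies inside its interval in pif4 pif5 pif7 and in sob3-6 against SOB3-D. In sob3-6 against Col-0, the HYH difference of -0.43 lies outside the HY5 interval. The ratio of HYH to HY5 in ppm was 1.78 to 2.01 in sob3-6, 1.97 to 2.49 in SOB3-D, 2.49 to 3.36 in pif4 pif5 pif7 and 2.37 to 2.71 in Col-0, so sob3-6 lay below Col-0 without overlap. HY5 activity is known to be set largely by protein stability, and protein was not measured.

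COP1 averaged 49.1 ± 2.3 ppm in sob3-6, 53.0 ± 4.4 in SOB3-D, 55.4 ± 1.5 in pif4 pif5 pif7 and 52.3 ± 2.3 ppm in Col-0. Libraries of neighbouring genotypes in this order overlapped throughout. Against Col-0 the log2 differences were -0.09 in sob3-6 (95% interval -0.21 to 0.03), 0.02 in SOB3-D (-0.11 to 0.14) and 0.08 in pif4 pif5 pif7 (-0.04 to 0.21), with limma adjusted p-values of 0.347, 0.87 and 0.5.

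**Figure D3:**
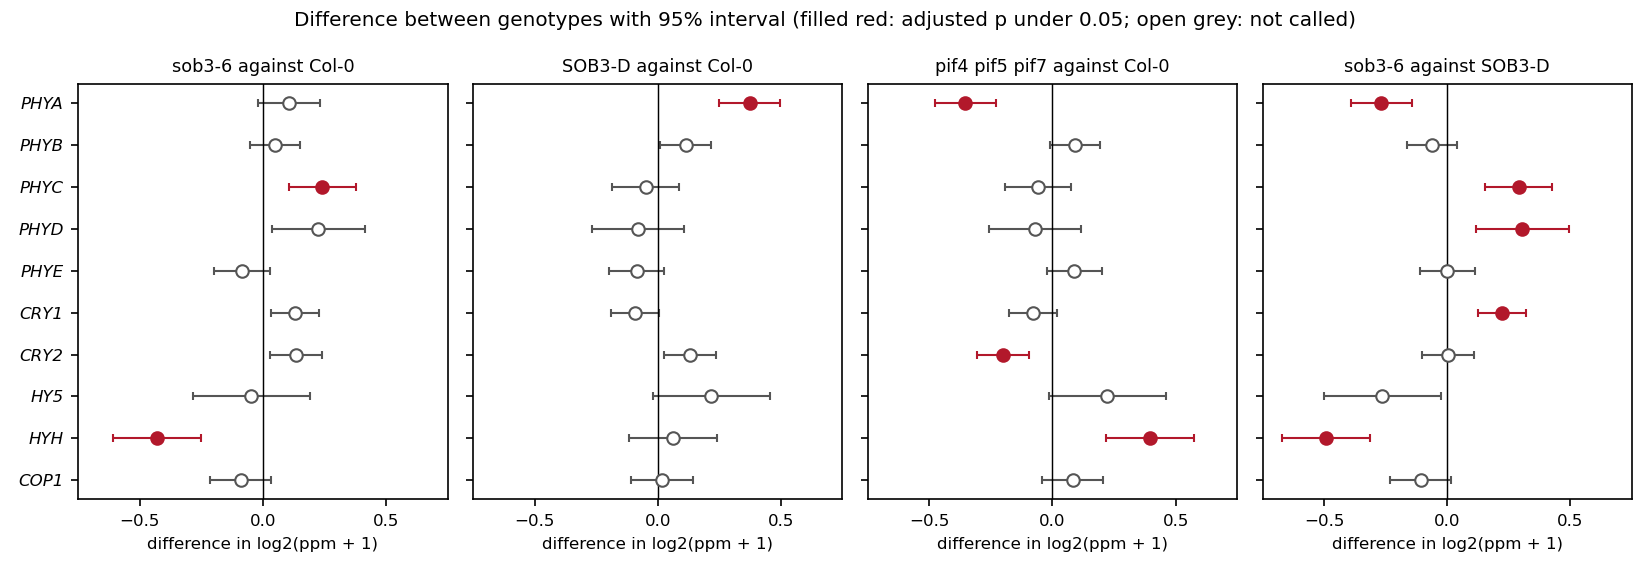
Difference in log2(ppm + 1) of each of the 10 genes in the 4 comparisons, with the 95% interval; filled red points have a limma adjusted p under 0.05 and open grey points do not. HYH is called lower in sob3-6 (-0.43), higher in pif4 pif5 pif7 (0.40) and lower in sob3-6 against SOB3-D (-0.49), while PHYA is called higher in SOB3-D (0.37) and lower in pif4 pif5 pif7 (-0.35).

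By comparison, 2 of the 10 genes were called in sob3-6 against Col-0, where 13.4% of all tested genes were called, and 1 of 10 in SOB3-D, where 26.4% were. In pif4 pif5 pif7 against Col-0, 3 of 10 were called, where 6.33% of all tested genes were, and in sob3-6 against SOB3-D 5 of 10, where 35.7% were. Libraries did not overlap for 6, 6, 4 and 6 of the 10 genes in these 4 comparisons, where 33.2%, 37.9%, 27.1% and 44.1% of all genes did not. The median log2 difference of the 10 was 0.08, 0.04, 0.01 and -0.03 in the same order, and that of all genes 0.06, -0.02, -0.04 and 0.09. With 10 genes these counts describe the set. The comparisons with Col-0 share the Col-0 libraries, and sob3-6 against SOB3-D shares both AHL lines with them.

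The share of all genes called higher depended on scaling, which the 10 genes share. In sob3-6 against Col-0, 1745 genes were called higher and 730 lower, against 810 and 1255 after median-of-ratios scaling and 896 and 1032 after quantile normalization, while edgeR called 968 and 1330. For pif4 pif5 pif7 the split was 277 and 894, and 534 and 565 after median-of-ratios scaling, 411 and 551 after quantile normalization and 649 and 725 by edgeR. In sob3-6 against SOB3-D it was 4591 and 2016, and 2642 and 2910, 2968 and 2596, and 2321 and 2702 by the same 3 alternatives. All calls of HYH and PHYA, and those of PHYC and CRY1 between the AHL lines, kept their direction and stayed under 0.05 in all 14 alternatives run on each comparison.

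By Pearson correlation of log2(ppm + 1) over the 12 libraries, the genes most like HYH were AT2G22360 (r = 0.974), AT3G07700 (r = 0.97) and FBA2, a plastid aldolase gene (r = 0.969). Those most like PHYA were AT1G15740 (r = 0.983), ckl3 (r = 0.973) and AT3G17020 (r = 0.965), and those most like CRY2 were VTE5 (r = 0.964), AT3G10720 (r = 0.963) and UBC5 (r = 0.961). FBA2 averaged 3382 ppm in sob3-6, 3895 in SOB3-D, 4580 in pif4 pif5 pif7 and 4003 ppm in Col-0, the order of genotypes seen for HYH at its ends. These are descriptions of the 12 libraries, whose differences in genotype and depth are common to all genes.

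Genes known as HY5 targets, 16 loci of which 14 passed the filter, were counted in the same comparisons. This list and the lists below were chosen with earlier results of these data known. The list does not record whether HY5 activates or represses each gene, so its counts of higher and lower genes do not measure HY5 activity. In sob3-6, 5 of 14 fell and 0 rose against Col-0, where 3.95% of all genes fell and 9.43% rose, and the median log2 difference of the 14 was -0.33. The 5 were ELIP1 and ELIP2, early light-induced proteins of photoprotection, SIG5, a plastid sigma factor, FLS1, flavonol synthase, and NRT1.1, a nitrate transporter; FLS1 and NRT1.1 are named for this comparison after their values were seen. ELIP1 was at 1.35 to 1.76 ppm in sob3-6, against 5.25 to 6.72 ppm in Col-0 (-1.48, SE 0.15, limma adjusted p = 2.14e-08). ELIP2 was at 1.04 to 1.67 ppm in sob3-6, against 2.97 to 4.67 ppm in Col-0 (-1.04, SE 0.16, limma adjusted p = 3.23e-05). These levels are near the pseudocount, so the log2 difference understates the change. SIG5 averaged 59.7 ± 3.6 ppm in sob3-6 and 86.7 ± 4.3 ppm in Col-0 (SD, n = 3 each; -0.53, SE 0.07, limma adjusted p = 3.03e-06). The 5 shoot markers, genes of photosynthesis, summed to 48620 to 49670 ppm in sob3-6, against 53080 to 55140 ppm in Col-0, and 2 of the 5 were called lower, RCA (-0.32) and CA1 (-0.16). The CA1 libraries overlapped those of Col-0, and its call held in 8 of 14 alternatives (highest adjusted p 0.21). The part of the shift of the shoot markers in the values of HYH and of the listed HY5 targets was not tested. Leaving out any 1 library gave a count of 5 lower in each case, and edgeR called 6 lower. Of the 14, 8 had an unadjusted limma p under 0.05 in either direction, including the 5 called lower, and edgeR called 0 higher.

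In pif4 pif5 pif7, 3 of the 14 rose against Col-0 and 0 fell, where 1.5% of all genes rose and 4.83% fell, and the median log2 difference was 0.22. They were RUP2, a repressor of the UV-B receptor UVR8 (0.33, SE 0.09, limma adjusted p = 0.0206), FLS1 (0.37, SE 0.11, limma adjusted p = 0.0329) and ELIP2 (0.56, SE 0.16, limma adjusted p = 0.0334). ELIP2 was at 5.21 to 6.73 ppm in pif4 pif5 pif7, against 2.97 to 4.67 ppm in Col-0. The 5 shoot markers summed to 57550 to 59710 ppm in pif4 pif5 pif7, against 53080 to 55140 ppm in Col-0, without overlap. RBCS1A was called higher (0.15, limma adjusted p = 0.00833), though not without Col-0 replicate 3 or pif4 pif5 pif7 replicate 1. Quantile normalization, which compares ranks and not levels, gave RBCS1A a difference of -0.0534. The part of the shoot markers in the result was not tested. The count of HY5 targets rested on single libraries: it was 0 without pif4 pif5 pif7 replicate 1 or 2 or Col-0 replicate 3, 1 without Col-0 replicate 2, and 5 by edgeR. Beside the count of 0 lower, 6 of the 14 had an unadjusted limma p under 0.05 in either direction and edgeR called 0 lower.

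In SOB3-D the list was split. Of the 3 root markers past the filter, 2 were called higher in that line, PHT1;1 (0.69) and PER3 (0.90), and FRO2 was called lower (-0.49, limma adjusted p = 0.0455). The FRO2 call held in 4 of 13 alternatives (highest adjusted p 0.229), and edgeR called 0 root markers lower. The 9 root markers summed to 6.15 to 8.11 ppm in SOB3-D, against 3.87 to 5.23 ppm in Col-0, and their part in these results was not tested. NRT1.1 rose to 80.2 to 84.2 ppm, against 50.9 to 53.1 ppm in Col-0 (0.67, SE 0.05, limma adjusted p = 5.51e-11), and PAP1, an activator of anthocyanin genes (0.78, SE 0.16, limma adjusted p = 0.000338), and CHI, chalcone isomerase (0.33, SE 0.09, limma adjusted p = 0.00462), also rose, though the CHI call was lost without Col-0 replicate 3 (limma adjusted p = 0.0541). ELIP2 fell to 2.22 to 3.27 ppm in SOB3-D (-0.46, SE 0.16, limma adjusted p = 0.0337), a call that edgeR did not make and that was lost without Col-0 replicate 1 or 2 or SOB3-D replicate 3. That is 3 higher and 1 lower of 14, where 11.6% and 14.9% of all genes were called. In sob3-6 against SOB3-D 9 of 14 were lower and 0 higher, where 10.9% and 24.8% of all genes were, and the median log2 difference was -0.42. NRT1.1 (-0.92), ELIP1 (-1.29) and PAP1 (-0.90) had the lowest p-values of the 9, with limma adjusted p-values of 2.34e-14, 3.72e-08 and 4.17e-05. The shoot markers summed to 48620 to 49670 ppm in sob3-6, against 54960 to 57710 ppm in SOB3-D. Of the 5, 3 were called lower, LHCB1.3 (-0.32), RCA (-0.16) and RBCS1A (-0.10), and RBCS1A was so called in 2 of 6 fits without 1 library. Quantile normalization gave each of the 3 a difference of 0. It makes transcripts of equal rank equal in all libraries, so it cannot show whether their levels differed. The part of these markers in the result was not tested. Without 1 library, 6 to 8 HY5 targets were lower, with 6 without SOB3-D replicate 1, and edgeR called 11 lower and 0 higher. In either direction 9 of the 14 had an unadjusted limma p under 0.05, the 9 called lower.

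**Figure D4:**
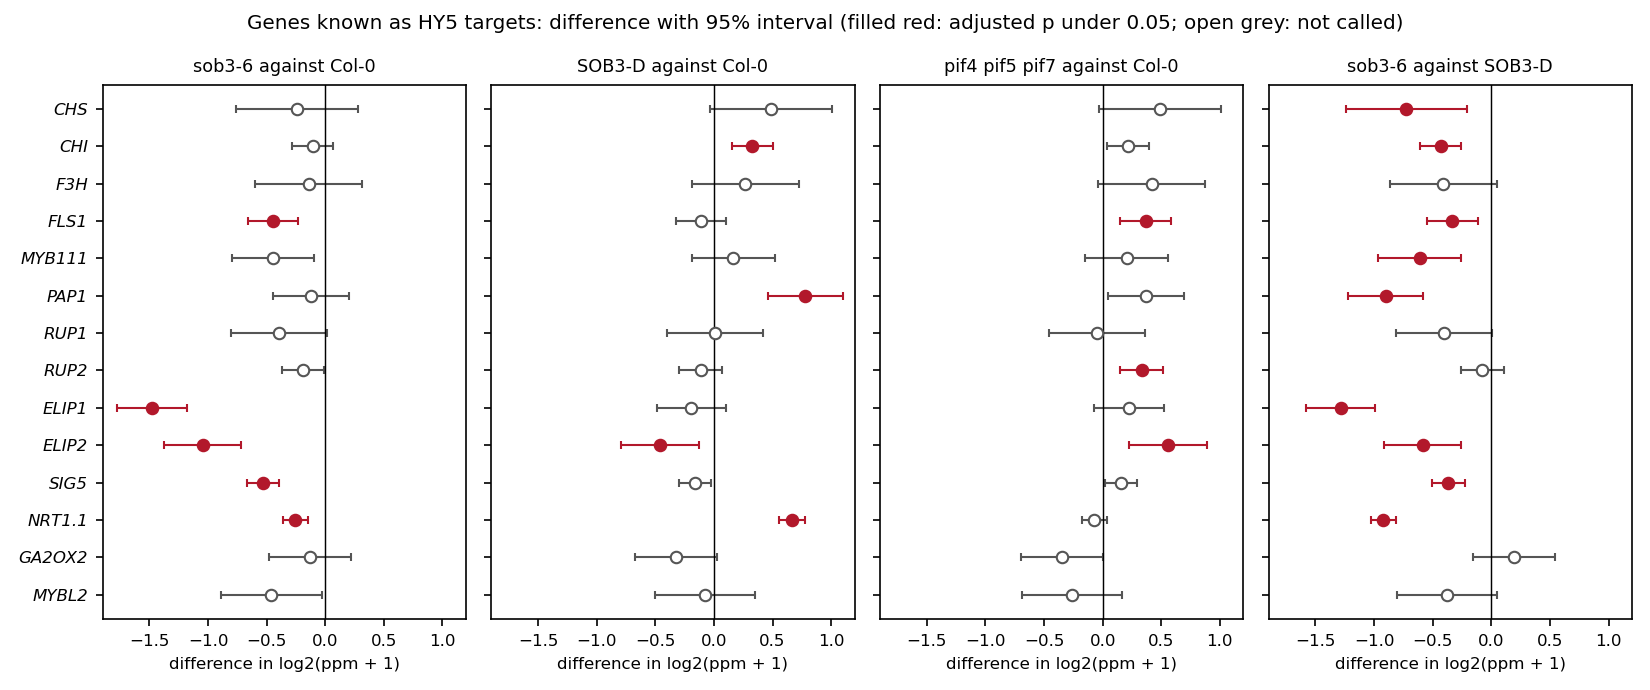
Difference in log2(ppm + 1) of the 14 genes known as HY5 targets that passed the filter, in the 4 comparisons, with the 95% interval; filled red points have a limma adjusted p under 0.05. In sob3-6 against Col-0 the 5 called genes are all lower, with ELIP1 at -1.48, in pif4 pif5 pif7 the 3 called genes are higher, and in sob3-6 against SOB3-D the 9 called genes are lower.

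Of 13 genes for HY5 partners and COP1 substrates, 10 passed the filter. BBX21 and BBX22, B-box proteins that act with HY5, rose in SOB3-D. BBX21 averaged 63.9 ppm in SOB3-D and 35.2 ppm in Col-0 (0.84, SE 0.07, limma adjusted p = 4.13e-10). BBX22 averaged 26.7 ppm in SOB3-D and 18.8 ppm in Col-0 (0.49, SE 0.13, limma adjusted p = 0.00854). In sob3-6, BBX22 fell to 12.4 ppm (-0.56, SE 0.13, limma adjusted p = 0.00758), as did BBX28 (-0.30, SE 0.06, limma adjusted p = 0.000891) and BBX25 (-0.19, SE 0.06, limma adjusted p = 0.0171), B-box proteins known to hold HY5 activity back; the BBX25 call was lost in 4 of 6 leave-one-out fits (highest adjusted p over 14 alternatives 0.0765). HFR1, a bHLH protein that COP1 degrades and that sequesters PIFs, fell to 1.68 ppm in pif4 pif5 pif7, against 10.2 ppm in Col-0 (-2.07, SE 0.15, limma adjusted p = 5.88e-10). BBX21 was lower there too (-0.25, SE 0.07, limma adjusted p = 0.0352), with a highest adjusted p of 0.267 over the alternatives. The gene that rose in sob3-6 was BBX4 (0.18, SE 0.05, limma adjusted p = 0.0219), named after its value was seen. That higher call was lost with edgeR, with median-of-ratios scaling and without Col-0 replicate 1 or sob3-6 replicate 1 or 2, where 0 of the 10 were higher. In all, 1 rose and 3 fell in sob3-6 (9.43% and 3.95% of all genes), 2 rose in SOB3-D (11.6% of all genes) and 2 fell in pif4 pif5 pif7 (4.83%), while in sob3-6 against SOB3-D 1 was higher and 4 were lower (24.8% and 10.9%). The median log2 difference of the 10 was -0.01 in sob3-6, 0.01 in SOB3-D, -0.07 in pif4 pif5 pif7 and -0.05 in sob3-6 against SOB3-D.

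Around COP1, 9 genes of its partner complexes were counted. In sob3-6 and in SOB3-D 1 of the 9 rose and 0 fell. Of all genes, 9.43% rose and 3.95% fell in sob3-6, and 11.6% rose and 14.9% fell in SOB3-D. SPA2, a kinase-like partner of COP1, rose in SOB3-D (0.26, SE 0.07, limma adjusted p = 0.00598; 50.7 ppm in SOB3-D and 42.1 ppm in Col-0), a call lost without SOB3-D replicate 1 (limma adjusted p = 0.051). COP10, a ubiquitin-conjugating enzyme variant, was higher in sob3-6 (0.37, SE 0.11, limma adjusted p = 0.0279; 9.66 ppm in sob3-6 and 7.23 ppm in Col-0), a call that was lost by edgeR and in 4 of 6 leave-one-out fits (highest adjusted p 0.123). In pif4 pif5 pif7 limma called 0 of 9, where it called 6.33% of all genes, with 1 at an unadjusted p under 0.05 and 0 by edgeR. In sob3-6 against SOB3-D, where 24.8% of all genes were higher and 10.9% lower, 3 of the 9 were higher, DET1 (0.19, limma adjusted p = 0.0115), COP10 (0.35, limma adjusted p = 0.0174) and DDB1A (0.14, limma adjusted p = 0.0321, named after its value was seen), and SPA2 was lower (-0.23, limma adjusted p = 0.0107); edgeR called 0 higher and 3 lower there, and the highest adjusted p over the alternatives was 0.188 for DET1, 0.0923 for COP10 and 0.106 for SPA2. Of 10 subunit genes of the COP9 signalosome, a complex that COP1 activity needs, limma and edgeR called 0 in each of the 4 comparisons, with 1, 0, 0 and 1 at an unadjusted limma p under 0.05 in sob3-6, SOB3-D, pif4 pif5 pif7 and sob3-6 against SOB3-D. Of all genes, limma called 13.4%, 26.4%, 6.33% and 35.7% in the same order.

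Of 13 genes for phytochrome chromophore synthesis, transport and partners, 12 passed the filter. In SOB3-D 3 rose and 3 fell, where 11.6% and 14.9% of all genes did. The higher count was 1 without Col-0 replicate 1 or SOB3-D replicate 2 or 3, and 2 without Col-0 replicate 3. HMR, also known as PTAC12, which acts in phytochrome signalling and plastid transcription, fell to 83.9 ppm, against 120.6 ppm in Col-0 (-0.52, SE 0.05, limma adjusted p = 1.46e-08). HY2, which makes the phytochrome chromophore, fell to 15.1 ppm, against 21.8 ppm in Col-0 (-0.51, SE 0.09, limma adjusted p = 4.32e-05). LRB1, part of a ubiquitin ligase that acts on PHYB and PIF3, rose (0.30, SE 0.06, limma adjusted p = 0.000661). HY1 (0.14) and FHY1 (0.31), which act in chromophore synthesis and in nuclear import of PHYA, were higher and AT2G16365 (-0.27) was lower, all 3 named after their values were seen. The loci AT2G16365 and AT4G34550 were the 2 that fell in sob3-6 and the 2 that rose in pif4 pif5 pif7. Of all genes, 3.95% fell in sob3-6 and 1.5% rose in pif4 pif5 pif7. Between the AHL lines 2 of the 12 were higher and 3 lower in sob3-6, where 24.8% and 10.9% of all genes were. AT4G34550 averaged 0.332 ppm in sob3-6, 4.25 ppm in pif4 pif5 pif7 and 2.01 ppm in Col-0 (-1.18 and 0.80, limma adjusted p = 7.94e-06 and 0.00292), and its sob3-6 level is close to that of 3 reads in a library. AT2G16365 averaged 28.7 ppm in sob3-6, 47.9 ppm in pif4 pif5 pif7 and 36.7 ppm in Col-0 (-0.35 and 0.38, limma adjusted p = 0.00144 and 0.00137).

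Among 7 genes listed around the cryptochromes, 2 fell in sob3-6 and 1 rose, 2 fell in SOB3-D, and 1 rose and 1 fell in pif4 pif5 pif7, with median log2 differences of 0.03, -0.11 and -0.06. Of all genes, 3.95% fell and 9.43% rose in sob3-6, 14.9% fell in SOB3-D, and 1.5% rose and 4.83% fell in pif4 pif5 pif7. Between the AHL lines 3 of the 7 were higher and 2 lower in sob3-6, where 24.8% and 10.9% of all genes were. EdgeR called 1 higher and 2 lower there, and fits without 1 library called 1 to 3 higher and 2 lower. CIB1 was among the higher ones (0.65, limma adjusted p = 3.56e-07), a call kept in 14 of 14 alternatives. CIB1, a bHLH protein that binds CRY2 in blue light, fell to 18.0 ppm in SOB3-D, against 27.3 ppm in Col-0 (-0.58, SE 0.08, limma adjusted p = 2.92e-06). It was also lower in pif4 pif5 pif7 (-0.31, SE 0.08, limma adjusted p = 0.0195), with a highest adjusted p of 0.132 over the alternatives. AT3G44450 and AT3G52740 were lower in sob3-6 (-0.90 and -0.71, limma adjusted p = 2.68e-07 and 2.99e-05), at 10.5 and 5.46 ppm in sob3-6 against 20.2 and 9.48 ppm in Col-0. AT3G44450 was also lower in SOB3-D (-0.39, limma adjusted p = 0.0044). AT3G52740 was higher in pif4 pif5 pif7 (0.36, limma adjusted p = 0.0421) and AT2G25760 in sob3-6 (0.21, limma adjusted p = 0.0203), with highest adjusted p-values of 0.215 and 0.149 over the alternatives. Of 7 other photoreceptor genes, 1 rose in sob3-6, 1 rose in SOB3-D and 1 fell in pif4 pif5 pif7, where 9.43%, 11.6% and 4.83% of all genes did. PHOT2, a blue light receptor for chloroplast movement, was higher in sob3-6 (0.16, SE 0.04, limma adjusted p = 0.00817) and in SOB3-D (0.14, SE 0.04, limma adjusted p = 0.0127), and PHOT1, its partner in phototropism, was lower in pif4 pif5 pif7 (-0.19, SE 0.05, limma adjusted p = 0.00995). The highest adjusted p of these 3 calls over the alternatives was 0.147, 0.0713 and 0.095. In sob3-6 against Col-0, edgeR called 0 of the 7 higher and 1 lower, and fits without 1 library called 0 to 1 in each direction. Between the AHL lines 2 of the 7 were lower in sob3-6 than in SOB3-D, where 10.9% of all genes were, CRY3 (-0.46, limma adjusted p = 0.000847) and ZTL (-0.19, limma adjusted p = 0.0141). ZTL had a highest adjusted p of 0.115 over the alternatives.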

How the data were processed

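RNA-seq libraries were made from shoots of 4 genotypes, 3 libraries each, using, per the labels' protocols, a strand-marking mRNA kit. Per the submitters' processing notes, bcl2fastq, Bowtie 1.2.1 and TAIR10 were used; whether counting used strand is not stated there. The deposited signal is ppm per transcript, the authors' tag counts scaled to mapped tags. In each library 100% of values were whole reads within 0.01 reads, so reads were recovered. The ppm of a library sum to 1599902 to 1626178, and those of the top transcript per locus to 1064018 to 1068876, so a read may count in several transcripts.

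Transcripts with at least 1 ppm in 3 libraries were kept. limma 3.58.1 (R 4.3.3, trend and robust empirical Bayes) was fitted on log2(ppm + 1) over 12 libraries with a term per genotype, and p-values were Benjamini-Hochberg adjusted over 25710 transcripts per comparison. A gene was read through its transcript of highest mean ppm. Alternatives were another pseudocount, other filters, median-of-ratios and quantile scaling, edgeR 4.0.16 on recovered reads, fits of 2 genotypes, a replicate block and leaving out each library. The fits were tested on simulated data.

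Replicates differed beyond sampling noise (chi-square over its degrees of freedom, 1.84 to 3.46). A count of 3 reads was 0.187 to 0.393 ppm, which covers counting error only. The text names the 10 genes, the altered genes, in each list the 3 called genes of lowest p per comparison, and for the 3 members of widest range the 3 genes of highest Pearson r. The members and lists were chosen with earlier results of these data known. Of 25089 loci, 24747 matched TAIR10.1.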

Additional observations from a re-analysis of the deposited data

How the results depend on the processing

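Calls of HYH and PHYA, and of PHYC and CRY1 between the AHL lines, held in all 14 alternatives. The number of the 10 genes called in sob3-6 was 1 with median-of-ratios scaling, quantile normalization and edgeR, and 4 with only the 2 genotypes or a replicate block. In SOB3-D it was 2 with median-of-ratios scaling, edgeR and the replicate block, and 3 with quantile normalization. Leaving out 1 library gave 1 to 2, 1 to 1, 2 to 3 and 4 to 5 genes in sob3-6, SOB3-D, pif4 pif5 pif7 and sob3-6 against SOB3-D.

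Over all genes, those called higher in sob3-6 numbered 810, 896 and 968 with median-of-ratios scaling, quantile normalization and edgeR, and those called lower 1255 and 1330 with the first and last. In pif4 pif5 pif7, 534, 649, 475 and 504 were higher with median-of-ratios scaling, edgeR, only the 2 genotypes and the replicate block, and 565 and 551 lower with median-of-ratios scaling and quantile normalization. In sob3-6 against SOB3-D, 2642, 2968 and 2321 were higher with median-of-ratios scaling, quantile normalization and edgeR. Leaving out 1 library gave 986 to 1350 higher and 507 to 607 lower in sob3-6, 1739 to 1988 and 2086 to 2548 in SOB3-D, 131 to 204 and 511 to 689 in pif4 pif5 pif7, and 3659 to 4218 and 1766 to 1928 in sob3-6 against SOB3-D. The cause was not tested, beyond fewer libraries in the last set. In sob3-6 the higher count fell past 1.5 times without Col-0 replicate 2 (1047) or 3 (1091) or sob3-6 replicate 2 (1072) or 3 (986), and in pif4 pif5 pif7 without Col-0 replicate 2 (174) or 3 (131) or its own replicate 1 (131) or 3 (181), where the lower count did so without Col-0 replicate 3 (511) or its own replicate 1 (521).

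Signs turned only for differences near 0 among the 10 genes, none of them called. PHYB in sob3-6 was -0.014 with median-of-ratios scaling and -0.0104 with edgeR. In sob3-6 against SOB3-D, with median-of-ratios scaling, quantile normalization and edgeR, PHYE was -0.0805, -0.0538 and -0.0788 and CRY2 -0.0785, -0.0462 and -0.0784. Leaving out 1 library gave ranges across 0 for PHYE (-0.0246 to 0.0138) and CRY2 (-0.0133 to 0.0225) there, for HY5 in sob3-6 (-0.105 to 0.0355), for HYH (-0.011 to 0.143) and COP1 (-0.0445 to 0.0712) in SOB3-D and for PHYC in pif4 pif5 pif7 (-0.114 to 0.00447). The shoot marker RBCS1A, called higher in pif4 pif5 pif7, was -0.0534 with quantile normalization, which compares ranks and not levels. The cause was not tested. Over 25710 transcripts, deviations of same-numbered libraries correlated at -0.049 to 0.153, so little was shared by number over all transcripts. That check cannot show whether single genes share a shift by number. F3H, a listed HY5 target, fell from replicate 1 to 3 in each genotype, and HFR1 was highest in replicate 3 in each. The main fit has no term for replicate number. With the replicate block 4 and 2 of the 10 genes were called in sob3-6 and SOB3-D. The added ones were CRY1 (limma adjusted p = 0.0206) and CRY2 (0.0398) in sob3-6 and CRY2 (0.03) in SOB3-D.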
